A study of Mus musculus with 10 samples.

Results

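The 36 genes described here encode enzymes of amino acid synthesis and breakdown. They were chosen by name, as enzymes of these pathways, and all 36 had a row among the 30431 rows of each comparison. Transcripts were profiled by RNA sequencing of the whole kidney in 10 mice aged 21 postnatal days, 1 library per mouse. The DM group held 3 mice of the genotype Pkhd1Cre; Pkd2 F/F; miR-21null, in which Cre recombinase deletes Pkd2 in the cells where it is active and miR-21 is null. The SM group held 3 mice of the genotype Pkhd1Cre; Pkd2 F/F, with the same deletion and no miR-21 allele named. The WT group held 4 wild-type mice, and whether they carried the floxed allele or Cre is not stated in any label used here. Pkd2 encodes the cation channel polycystin-2, whose loss in tubule cells causes polycystic kidneys. No group lacked miR-21 alone, so the DM to SM comparison bears on miR-21 only in kidneys that also carry the Pkd2 deletion.

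The proximal tubule, which reabsorbs filtered amino acids, also carries many of the enzymes that break them down or convert them. It is known for making arginine from citrulline and guanidinoacetate, the precursor of creatine, from arginine and glycine, and for releasing ammonia from glutamine and glutamate. Pkhd1Cre is known as a driver active in the collecting duct, a different segment of the nephron.

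Fold changes (log2 scale) and p-values were taken from the authors' deposited tables, made with edgeR's likelihood ratio test. A gene was called where the authors' adjusted p, corrected over all rows, was under 0.05. No values of single libraries or sequencing depths were used here, and the number after ± is the standard error (SE) that a gene's fold change and test score imply. Group levels in CPM, the read count scaled to library size, were solved from the deposited average and fold changes and carry no SD. Pkd2 itself averaged 169.9 CPM in DM, 179.7 CPM in SM and 239 CPM in WT kidneys, and its log2 fold change was -0.49 ± 0.20 (adjusted p = 0.0838) in DM over WT and -0.41 ± 0.20 (adjusted p = 0.179) in SM over WT in the authors' deposited tables. Neither passed the threshold in this whole tissue, and the miR-21 row was listed at the lowest level, so it checks nothing. Markers of the kidney's proximal tubule were abundant, the highest in CPM being the androgen-regulated protein gene Kap at 5917 CPM in DM, 4741 CPM in SM and 11798 CPM in WT kidneys. Of 24 hepatocyte markers, 13 fell and 3 rose in DM, and 14 fell and 2 rose in SM over WT in the authors' deposited tables. Albumin (Alb), among those that fell in both, stood at 1.03 CPM in DM, 0.328 CPM in SM and 132 CPM in WT kidneys.

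Most of the amino acid enzymes were lower in the kidneys with Pkd2 deleted than in wild-type kidneys. In SM over WT, 30 of the 36 members fell and 0 were higher in the authors' deposited table, where 6.09% of all rows were lower and 7.87% higher. The median log2 fold change of the members was -1.05, which is 48.3% of the WT level, and the median of all rows was 0. As 34 of the 36 members averaged at least 16 CPM, the share among the 9233 rows at or above that level, 11.3% lower, is a closer background. Summed over the members, levels were 5873 CPM in DM, 5649 CPM in SM and 11727 CPM in WT kidneys. Every one of the 36 fold changes was below 0, and the 6 members that did not pass were Arg2, Oat, Pipox, Prodh2, Glul and Bcat1. In whole kidney, fewer cells of a type and less RNA per cell cannot be told apart.

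With miR-21 missing as well, the counts were close to these. In DM over WT, 28 of 36 members fell and 0 were higher in the authors' deposited table, against 5.92% of all rows lower, 7.55% higher, and 9.91% lower among rows of at least 16 CPM. The median log2 fold change was -0.92, or 52.9% of the WT level. The comparisons share the WT libraries. Glud1 and Acy1 were called in SM and not in DM over WT, and for neither was the difference between DM and SM called. When the likelihood ratio was read against a heavier-tailed Student t distribution with 7 degrees of freedom, 7 members were called in SM over WT and 3 in DM over WT, so most single calls depend on the authors' chi-square reference. In the authors' deposited tables the call nearest to the threshold was Asl in SM over WT (adjusted p = 0.0331) and Bckdhb in DM over WT (adjusted p = 0.0366). The nearest outside were Prodh2 in SM over WT (adjusted p = 0.145) and Glud1 in DM over WT (adjusted p = 0.0558) in the authors' deposited tables.

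**Figure D1:**
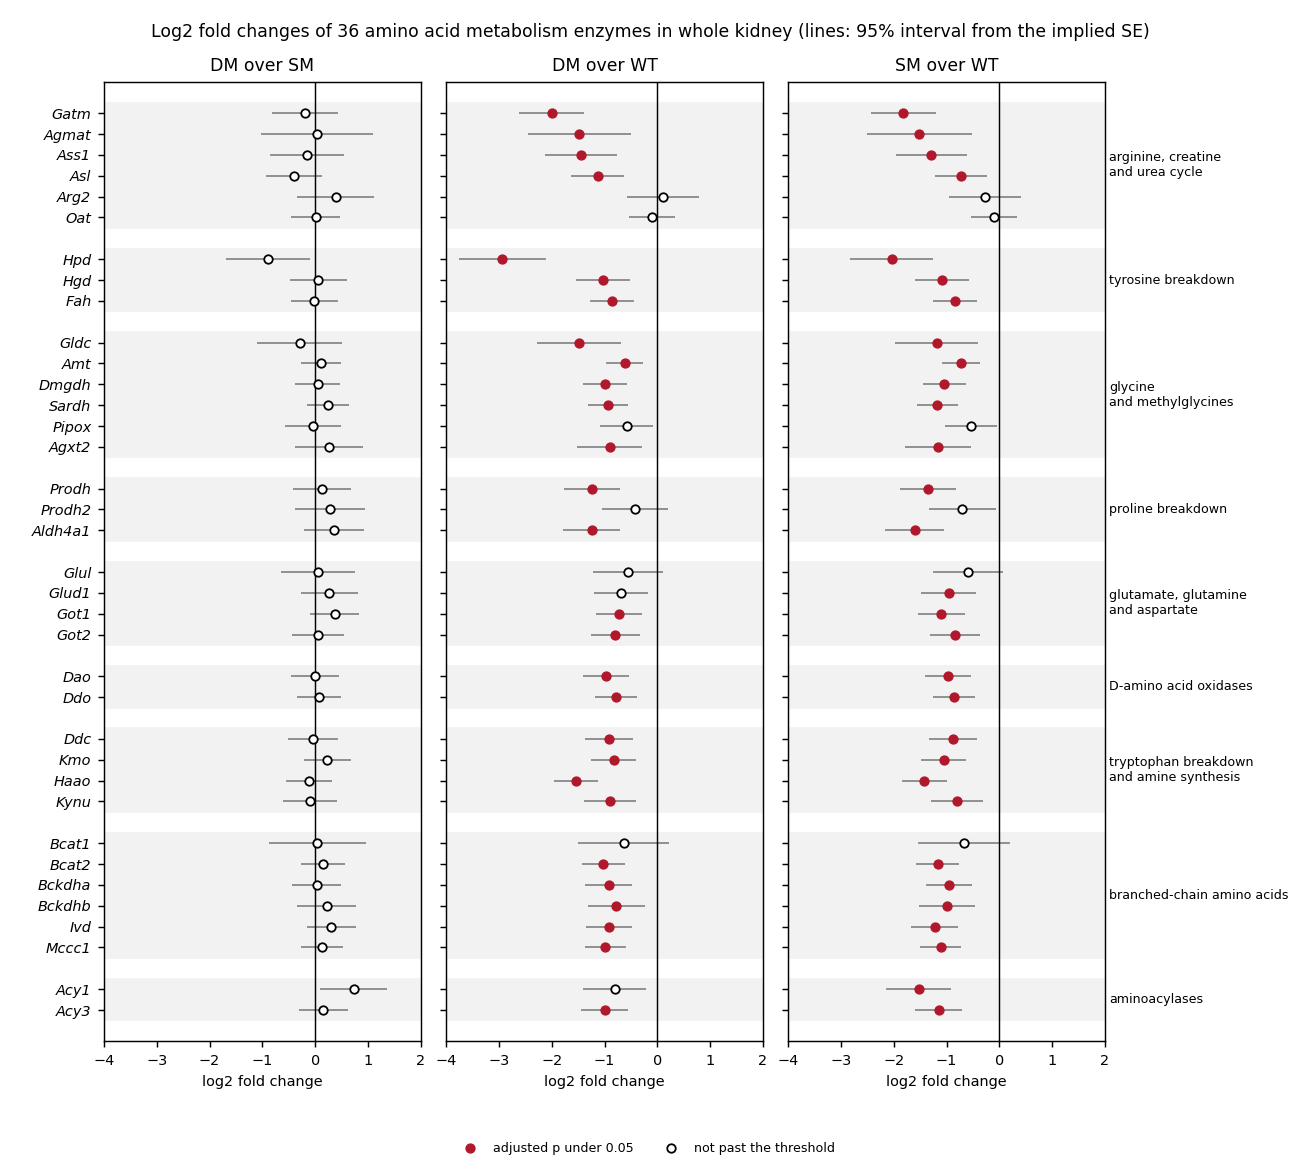
Log2 fold changes (x axes) of the 36 enzymes (rows, shaded by pathway) for DM over SM, DM over WT and SM over WT, as points with 95% intervals computed from the SE. Filled points passed an adjusted p of 0.05. Against WT nearly all points lie left of 0, with Hpd farthest at -2.94 in DM and -2.04 in SM, while the DM over SM points lie around 0.

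Promoter sequences are shown for Hpd and Gatm, the members with the lowest fold changes in DM and SM over WT, and for Agxt2, whose promoter held a motif of a proximal tubule transcription factor. They cover the 250 bases before the start of the gene in RefSeq (GRCm38.p6), 5′ to 3′ on the gene's strand. Capitals mark an exact match to a binding motif of HNF4, a nuclear receptor of proximal tubule and liver (CAAAGTCCA, either strand).

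Hpd (chr5:123182724-123182973, minus strand): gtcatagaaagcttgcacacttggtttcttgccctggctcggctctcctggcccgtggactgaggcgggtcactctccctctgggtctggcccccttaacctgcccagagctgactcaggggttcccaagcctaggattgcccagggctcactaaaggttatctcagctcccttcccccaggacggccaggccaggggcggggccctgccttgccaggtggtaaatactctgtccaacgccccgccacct

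Gatm (chr2:122611278-122611527, minus strand): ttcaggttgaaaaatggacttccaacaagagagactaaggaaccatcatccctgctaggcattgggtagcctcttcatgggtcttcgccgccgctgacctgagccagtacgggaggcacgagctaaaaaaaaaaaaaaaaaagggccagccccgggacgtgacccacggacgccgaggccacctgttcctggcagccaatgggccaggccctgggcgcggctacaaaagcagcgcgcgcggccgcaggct

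Agxt2 (chr15:10358283-10358532, plus strand): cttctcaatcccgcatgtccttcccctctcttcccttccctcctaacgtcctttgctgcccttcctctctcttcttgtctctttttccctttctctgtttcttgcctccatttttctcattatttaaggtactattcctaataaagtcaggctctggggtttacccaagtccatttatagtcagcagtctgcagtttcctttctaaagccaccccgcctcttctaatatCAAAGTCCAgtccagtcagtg

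RefSeq promoters were matched for 33 of the 36 members, with 41 windows. The HNF4 motif was found in Agxt2 alone, at 1 site that lies in both of its overlapping windows, against 0.384% of all 32851 windows. The match is letters in a window, not binding. The windows shown reach into their genes as GENCODE M21 annotates them, that of Gatm farthest and the others by at most a few bases. Hnf4a, which encodes the kidney's main HNF4, fell, with -0.78 ± 0.25 (adjusted p = 0.0206) in DM and -0.82 ± 0.26 (adjusted p = 0.0136) in SM over WT in the authors' deposited tables. Hnf4a is also among the proximal tubule markers described below. A link between its level and those of the enzymes was not tested. Median GC content was 56.4% in the members' windows and 52.4% in all windows.

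The enzymes of arginine and creatine metabolism were split between 4 that fell and a pair that did not pass. Gatm (glycine amidinotransferase, chromosome 2, 122594467 to 122611303, GRCm38, minus strand), which makes guanidinoacetate, stood at 427 CPM in DM, 485 CPM in SM and 1712 CPM in WT kidneys. Its level was thus 24.9% of WT in DM and 28.4% of WT in SM. Its log2 fold change was -2.00 ± 0.32 (adjusted p = 3.33e-08) in DM over WT and -1.82 ± 0.32 (adjusted p = 5.05e-07) in SM over WT in the authors' deposited tables. Ass1 (argininosuccinate synthase) and Asl (argininosuccinate lyase) carry out the consecutive steps from citrulline to arginine. Ass1 stood at 512 CPM in DM, 570.2 CPM in SM and 1391 CPM in WT kidneys. Asl stood at 94.5 CPM in DM, 125 CPM in SM and 206 CPM in WT kidneys. Ass1 had log2 fold changes of -1.44 ± 0.35 (adjusted p = 0.000709) in DM over WT and -1.29 ± 0.34 (adjusted p = 0.00283) in SM over WT in the authors' deposited tables. Asl had -1.13 ± 0.26 (adjusted p = 0.000294) in DM over WT and -0.73 ± 0.25 (adjusted p = 0.0331) in SM over WT in the authors' deposited tables. The log2 fold change of Asl between DM and SM was -0.40 (95% interval -0.92 to 0.12) in the authors' deposited table, and that interval holds 0.

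Agmat, annotated as agmatinase, which splits agmatine into putrescine and urea, had the lowest level of all members, in CPM and per kilobase of exon, at 0.561 CPM in DM, 0.546 CPM in SM and 1.56 CPM in WT kidneys. It fell in both comparisons, with log2 fold changes of -1.48 ± 0.50 (adjusted p = 0.027) in DM over WT and -1.52 ± 0.51 (adjusted p = 0.0245) in SM over WT in the authors' deposited tables. Arg2 and Oat did not pass. Arg2, the mitochondrial arginase, stood at 62.4 CPM in DM, 47.6 CPM in SM and 57.7 CPM in WT kidneys. Its log2 fold change of 0.11 ± 0.35 (adjusted p = 1) in DM over WT was the only one above 0 among the members, beside -0.28 ± 0.35 (adjusted p = 0.775) in SM over WT, in the authors' deposited tables. Oat (ornithine aminotransferase), which links ornithine to glutamate and proline, stood at 347 CPM in DM, 344 CPM in SM and 372 CPM in WT kidneys. The groups lay close together for Oat, with 95% intervals of -0.53 to 0.34 for DM over WT and -0.55 to 0.33 for SM over WT on the log2 scale.

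Tyrosine is broken down by consecutive steps, of which Hpd, Hgd and Fah catalyse later ones. All 3 genes fell in both comparisons in the authors' deposited tables. Hpd (4-hydroxyphenylpyruvate dioxygenase, chromosome 5, 123171807 to 123182727, GRCm38, minus strand) stood at 19.3 CPM in DM, 35.9 CPM in SM and 148 CPM in WT kidneys. It had the lowest fold change of all members, -2.94 ± 0.42 (adjusted p = 4.03e-10) in DM over WT and -2.04 ± 0.40 (adjusted p = 1.46e-05) in SM over WT in the authors' deposited tables, and its level was 13.1% of WT in DM and 24.4% in SM. Hgd (homogentisate 1,2-dioxygenase) stood at 175 CPM in DM, 167 CPM in SM and 357 CPM in WT kidneys. Fah (fumarylacetoacetate hydrolase) stood at 191 CPM in DM, 193 CPM in SM and 347 CPM in WT kidneys. Hgd had -1.03 ± 0.26 (adjusted p = 0.00153) in DM and -1.09 ± 0.26 (adjusted p = 0.000629) in SM over WT in the authors' deposited tables. Fah had -0.86 ± 0.21 (adjusted p = 0.00108) in DM and -0.85 ± 0.21 (adjusted p = 0.00123) in SM over WT in the authors' deposited tables. DM and SM kidneys were almost level for Hgd and Fah.

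Of the enzymes that handle glycine and its methylated forms, 5 of 6 fell in DM and 5 of 6 in SM over WT in the authors' deposited tables. Gldc and Amt encode the decarboxylase and aminomethyltransferase of the mitochondrial glycine cleavage system. Gldc stood at 93.7 CPM in DM, 115 CPM in SM and 261 CPM in WT kidneys. Amt stood at 51.2 CPM in DM, 47.3 CPM in SM and 78.6 CPM in WT kidneys, with log2 fold changes of -0.62 ± 0.18 (adjusted p = 0.00791) in DM over WT and -0.73 ± 0.18 (adjusted p = 0.00103) in SM over WT in the authors' deposited tables. Amt, Asl and Kynu had the highest fold changes among the members called in SM over WT. Gldc had -1.48 ± 0.40 (adjusted p = 0.00368) in DM and -1.19 ± 0.40 (adjusted p = 0.0256) in SM over WT in the authors' deposited tables.

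Dmgdh and Sardh strip methyl groups from dimethylglycine and sarcosine on the way to glycine. Dmgdh stood at 41.9 CPM in DM, 40.6 CPM in SM and 83.5 CPM in WT kidneys. Sardh stood at 106 CPM in DM, 89.6 CPM in SM and 202 CPM in WT kidneys, with a log2 fold change of -1.17 ± 0.20 (adjusted p = 1.49e-07) in SM over WT in the authors' deposited table. For Sardh this left 52.3% of WT in DM and 44.3% in SM. Dmgdh had -0.99 ± 0.21 (adjusted p = 7.3e-05) in DM and -1.04 ± 0.21 (adjusted p = 2.62e-05) in SM over WT in the authors' deposited tables. Agxt2, a mitochondrial aminotransferase that uses glyoxylate and whose promoter holds the HNF4 motif, stood at 53.2 CPM in DM, 44.4 CPM in SM and 99.3 CPM in WT kidneys, with -0.90 ± 0.31 (adjusted p = 0.0335) in DM and -1.16 ± 0.32 (adjusted p = 0.00338) in SM over WT in the authors' deposited tables. Pipox, a peroxisomal oxidase of sarcosine and pipecolic acid, stood at 129 CPM in DM, 133 CPM in SM and 193 CPM in WT kidneys. Its log2 fold change of -0.58 ± 0.25 (adjusted p = 0.116) in DM over WT and -0.54 ± 0.25 (adjusted p = 0.157) in SM over WT in the authors' deposited tables did not pass, although both 95% intervals (-1.08 to -0.09 in DM and -1.04 to -0.05 in SM) lay below 0 without adjustment.

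For proline, the pair of enzymes that takes it to glutamate fell, and the hydroxyproline enzyme did not pass. Prodh (proline dehydrogenase) stood at 119 CPM in DM, 109 CPM in SM and 278 CPM in WT kidneys. Aldh4a1, the dehydrogenase of the next step (chromosome 4, 139622866 to 139649690, GRCm38, plus strand), stood at 276 CPM in DM, 215 CPM in SM and 653 CPM in WT kidneys. Its log2 fold change of -1.60 ± 0.28 (adjusted p = 7.95e-07) in SM over WT was the third lowest among the members, and it was -1.25 ± 0.28 (adjusted p = 0.000226) in DM over WT, in the authors' deposited tables. Prodh2, which oxidises hydroxyproline, stood at 101 CPM in DM, 82.7 CPM in SM and 135 CPM in WT kidneys, with -0.42 ± 0.32 (adjusted p = 0.5) in DM and -0.71 ± 0.32 (adjusted p = 0.145) in SM over WT in the authors' deposited tables. The 95% interval of Prodh2 in SM over WT (-1.34 to -0.07) lay below 0 without adjustment, and that in DM over WT (-1.05 to 0.20) held 0. Whether Prodh2 differs from the proline pair was not tested. Prodh had -1.23 ± 0.27 (adjusted p = 0.000175) in DM and -1.35 ± 0.27 (adjusted p = 2.53e-05) in SM over WT in the authors' deposited tables.

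Of the 4 glutamine, glutamate and aspartate enzymes, 2 fell in DM and 3 fell in SM over WT in the authors' deposited tables. Glul (glutamine synthetase) stood at 1185 CPM in DM, 1145 CPM in SM and 1735 CPM in WT kidneys and did not pass in either comparison (adjusted p = 0.352 in DM and 0.289 in SM over WT in the authors' deposited tables). Glud1 (glutamate dehydrogenase), which releases ammonia from glutamate, stood at 436 CPM in DM, 362 CPM in SM and 706 CPM in WT kidneys. It fell in SM over WT, -0.96 ± 0.26 (adjusted p = 0.00375), and had -0.70 ± 0.26 (adjusted p = 0.0558) in DM over WT in the authors' deposited tables. Between DM and SM, Glud1 had 0.27 (95% interval -0.27 to 0.80) in the authors' deposited table and was not called. The aspartate aminotransferases Got1 (cytosolic) and Got2 (mitochondrial) fell in both. Got1 stood at 93.4 CPM in DM, 72.2 CPM in SM and 155 CPM in WT kidneys. Got2 stood at 315 CPM in DM, 305 CPM in SM and 547 CPM in WT kidneys. Got1 had -0.73 ± 0.23 (adjusted p = 0.0134) in DM and -1.10 ± 0.23 (adjusted p = 4.74e-05) in SM over WT in the authors' deposited tables. Got2 had -0.80 ± 0.24 (adjusted p = 0.00976) in DM and -0.84 ± 0.24 (adjusted p = 0.00522) in SM over WT in the authors' deposited tables.

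Both oxidases of D-amino acids, which are peroxisomal, fell in both comparisons. Dao, which acts on neutral D-amino acids, stood at 141 CPM in DM, 141 CPM in SM and 276 CPM in WT kidneys. Ddo, which acts on D-aspartate, stood at 22.8 CPM in DM, 21.6 CPM in SM and 39.3 CPM in WT kidneys. For Dao the log2 fold change was -0.97 ± 0.22 (adjusted p = 0.000311) in DM and -0.97 ± 0.22 (adjusted p = 0.000304) in SM over WT in the authors' deposited tables. Ddo had -0.79 ± 0.20 (adjusted p = 0.00174) in DM and -0.86 ± 0.20 (adjusted p = 0.000444) in SM over WT in the authors' deposited tables. The 95% intervals of DM over SM, -0.46 to 0.45 for Dao and -0.34 to 0.50 for Ddo, both hold 0.

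All 4 genes of tryptophan breakdown and amine synthesis fell in both comparisons in the authors' deposited tables. Kmo, Kynu and Haao act in turn on kynurenine, 3-hydroxykynurenine and 3-hydroxyanthranilate on the way to NAD. Haao (chromosome 17, 83831156 to 83847963, GRCm38, minus strand) stood at 30.2 CPM in DM, 32.8 CPM in SM and 87.7 CPM in WT kidneys. Its adjusted p of 1.81e-10 in DM over WT and 4.49e-09 in SM over WT was the smallest of all members in each of the authors' deposited tables, at log2 fold changes of -1.54 ± 0.22 in DM and -1.42 ± 0.22 in SM. Kmo stood at 49.3 CPM in DM, 42.0 CPM in SM and 87.5 CPM in WT kidneys. Kynu stood at 22.5 CPM in DM, 24.0 CPM in SM and 41.8 CPM in WT kidneys, with -0.89 ± 0.25 (adjusted p = 0.00527) in DM and -0.80 ± 0.25 (adjusted p = 0.0144) in SM over WT in the authors' deposited tables. Ddc (aromatic L-amino acid decarboxylase), which makes dopamine in the proximal tubule, stood at 30.8 CPM in DM, 31.7 CPM in SM and 58.1 CPM in WT kidneys. Kmo had -0.83 ± 0.22 (adjusted p = 0.00214) in DM and -1.06 ± 0.22 (adjusted p = 3.83e-05) in SM over WT in the authors' deposited tables. Ddc had -0.92 ± 0.23 (adjusted p = 0.00159) in DM and -0.87 ± 0.23 (adjusted p = 0.00277) in SM over WT in the authors' deposited tables.

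Of the 6 branched-chain amino acid enzymes 5 fell in both comparisons in the authors' deposited tables. Bcat1 and Bcat2 encode the cytosolic and mitochondrial aminotransferases of the first step. Bcat2 stood at 61.9 CPM in DM, 55.9 CPM in SM and 126 CPM in WT kidneys, with -1.17 ± 0.21 (adjusted p = 8.78e-07) in SM over WT in the authors' deposited table. Bcat1, at 10.6 CPM in DM, 10.3 CPM in SM and 16.4 CPM in WT kidneys, did not pass, and its wide intervals (-1.50 to 0.23 for DM and -1.55 to 0.19 for SM over WT) hold the fold change of Bcat2 as well as 0. Bckdha and Bckdhb are the E1 subunits of the branched-chain ketoacid dehydrogenase. Bckdha stood at 121.9 CPM in DM, 119 CPM in SM and 231 CPM in WT kidneys. Bckdhb stood at 24.3 CPM in DM, 20.9 CPM in SM and 41.6 CPM in WT kidneys. The leucine enzymes downstream, Ivd (isovaleryl-CoA dehydrogenase) and Mccc1 (a methylcrotonyl-CoA carboxylase subunit), take part in its breakdown. Ivd stood at 134 CPM in DM, 109 CPM in SM and 254 CPM in WT kidneys. Mccc1 stood at 105 CPM in DM, 95.9 CPM in SM and 207 CPM in WT kidneys. The 5 members that fell lay between -1.22 (Ivd) and -0.95 (Bckdha) in SM over WT in the authors' deposited table and between -1.02 (Bcat2) and -0.77 (Bckdhb) in DM over WT, with SEs of 0.20 to 0.27 in SM.

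Of the aminoacylases, Acy3, which deacetylates mercapturic acids, stood at 131 CPM in DM, 117 CPM in SM and 259.8 CPM in WT kidneys and fell in both comparisons, with -0.99 ± 0.23 (adjusted p = 0.000335) in DM and -1.15 ± 0.23 (adjusted p = 1.95e-05) in SM over WT in the authors' deposited tables. Acy1, which frees amino acids from their N-acetyl forms (chromosome 9, 106432981 to 106438319, GRCm38, minus strand), stood at 161 CPM in DM, 97.6 CPM in SM and 282 CPM in WT kidneys. Its log2 fold change was -0.80 ± 0.30 (adjusted p = 0.0582) in DM over WT and -1.53 ± 0.31 (adjusted p = 3.26e-05) in SM over WT in the authors' deposited tables. Acy1 was thus called in SM and not in DM, at 34.6% of WT, with 57.3% of WT in DM.

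**Figure D2:**
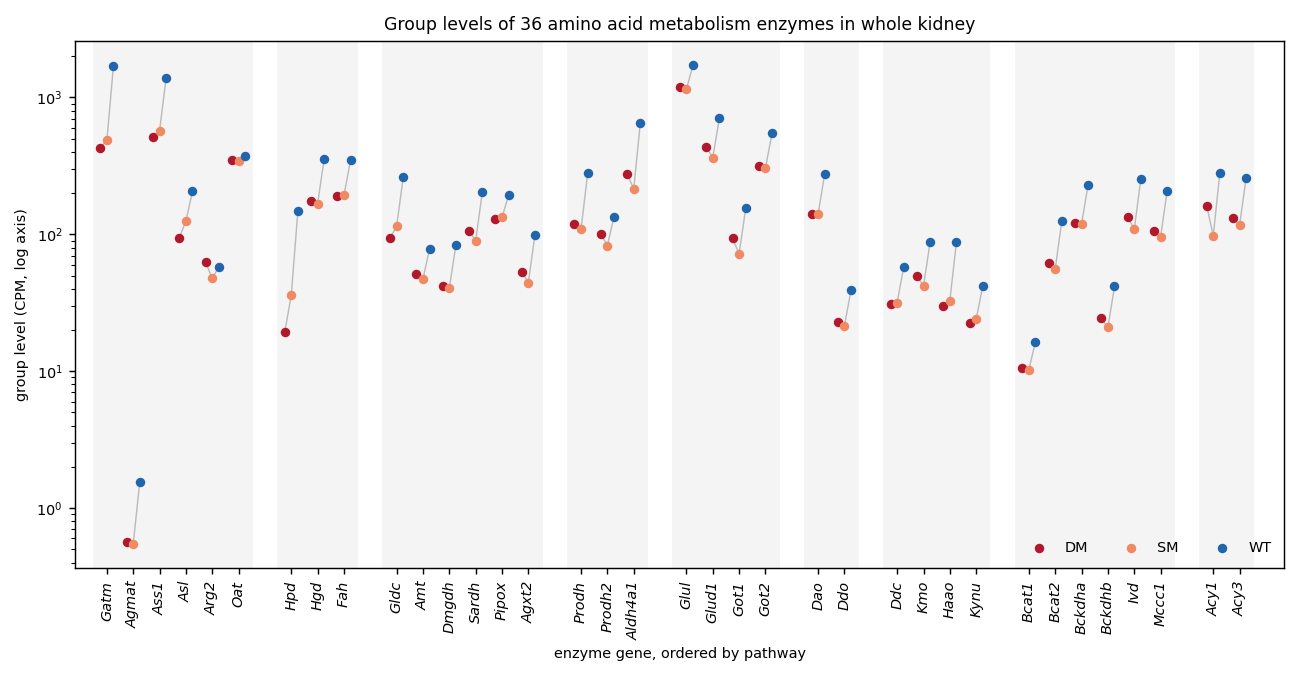
Levels of the 36 enzymes in CPM (log axis), solved per group, with DM, SM and WT side by side for each gene and no error bar because no value per library was used. WT lies above DM and SM for every gene except Arg2, where DM is highest, and the 3 groups nearly meet for Oat.

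Whether the DM and SM kidneys differed is tested by their direct comparison. In DM over SM, 0 of the 36 members were called in the authors' deposited table, where 0.0789% of all rows were. At an unadjusted p under 0.05 there were 2 members, Hpd and Acy1, against 3.75% of all rows. Hpd was lower in DM, with a log2 fold change of -0.90 (SE 0.41, unadjusted p = 0.0264, adjusted p = 1) in the authors' deposited table. Acy1 was higher in DM, with 0.73 (SE 0.32, unadjusted p = 0.0236, adjusted p = 1) in the authors' deposited table. Neither is a call. The median log2 fold change was 0.06, with 25 members above 0 and 11 below. For 31 of 36 members the 95% interval of the difference lay within 1 log2 unit on either side of 0, and over all members the bounds ran from -1.69 to 1.35. The median SE was 0.26. Hgd, Fah, Oat, Dao and Got2 were among the genes with values near 0. Hpd and Acy1 had the lowest and the highest value, and no difference between DM and SM is read from them.

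By compartment, 16 of 20 mitochondrial, 10 of 13 cytosolic and 2 of 3 peroxisomal members fell in DM over WT in the authors' deposited table. In SM over WT the counts were 17 of 20, 11 of 13 and 2 of 3 in the same order. Median log2 fold changes in SM over WT were -1.09, -1.09 and -0.86, with a median SE of 0.25 per gene. The members lie on 18 chromosomes. Per kilobase of annotated exon, the highest WT levels were 576 CPM per kb for Ass1, 570.3 for Gatm and 522 for Glul, and the lowest were 1.11 for Agmat and 1.76 for Bcat1. In SM kidneys the same measure gave 345 CPM per kb for Glul, 236 for Ass1 and 162 for Gatm, with Oat at 146. Glul thus had the highest level per kb in SM and DM (357 CPM per kb), and no error is known for that order.

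**Figure D3:**
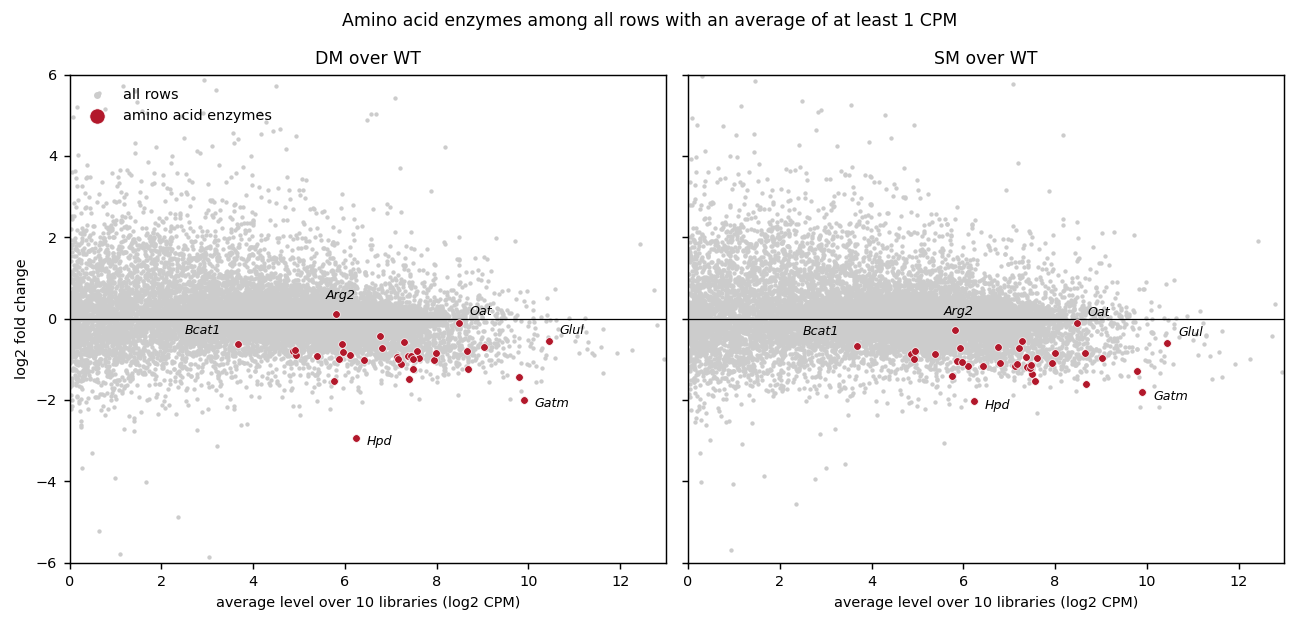
Log2 fold change (y axis) against average level in log2 CPM (x axis) for the 15135 rows averaging at least 1 CPM (grey) and the 35 enzymes among them (red), for DM over WT and SM over WT. The enzymes sit in the upper range of levels and below the line at 0, except Arg2 in DM, which lies just above it. Beyond the y axis lie 15 rows in DM and 13 in SM, none of them an enzyme of the list, and 4 rows lie beyond the x axis.

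Other enzymes of amino acid metabolism, 88 genes in 7 lists, fell for 47 and rose for 4 in DM over WT, and fell for 53 and rose for 3 in SM over WT, in the authors' deposited tables. With the Student t reference 2 were lower and 0 higher in DM, and 8 lower and 1 higher in SM. Between DM and SM 0 of the 88 were called and 4 had an unadjusted p under 0.05 in the authors' deposited table. Their median log2 fold change was -0.75 in DM and -0.84 in SM over WT. The genes that rose were Pycr1, Aldh18a1 and Asns of proline and asparagine synthesis, and in DM also Psat1 of serine synthesis. Pycr1, which makes proline, stood at 2.36 CPM in DM, 2.86 CPM in SM and 0.860 CPM in WT kidneys and had 1.73 ± 0.40 (adjusted p = 0.00034) in SM over WT in the authors' deposited table. Aldh18a1, which starts proline synthesis from glutamate, stood at 18.7 CPM in DM, 21.1 CPM in SM and 6.81 CPM in WT kidneys, with 1.46 ± 0.27 (adjusted p = 2.31e-06) in DM and 1.63 ± 0.27 (adjusted p = 7.05e-08) in SM over WT in the authors' deposited tables. Asns (asparagine synthetase) stood at 9.27 CPM in DM, 9.04 CPM in SM and 4.60 CPM in WT kidneys, with 0.98 ± 0.31 (adjusted p = 0.0175) in SM over WT in the authors' deposited table. The breakdown and synthesis genes of proline moved in opposite directions, with Prodh and Aldh4a1 of breakdown lower and Pycr1 and Aldh18a1 of synthesis higher in DM and SM than in WT. In the same list Abat (GABA transaminase) had the lowest value, -1.23 ± 0.22 (adjusted p = 1.52e-06) in SM over WT in the authors' deposited table.

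Among the branched-chain list 9 of 14 fell in DM and 12 of 14 in SM over WT in the authors' deposited tables, from Aldh6a1, the methylmalonate semialdehyde dehydrogenase, at -1.10 to Acadsb, a short branched-chain acyl-CoA dehydrogenase, at -0.67 in SM. Tryptophan, lysine and histidine genes fell for 12 of 18 in DM and 12 of 18 in SM, from Tdo2, which starts tryptophan breakdown, at -5.25 to Aldh7a1, of lysine breakdown, at -0.71 in SM over WT in the authors' deposited table. Serine, glycine and one-carbon genes fell for 10 of 15 in DM and 10 of 15 in SM, from Sds, serine dehydratase, at -6.59 to Shmt1, a serine hydroxymethyltransferase, at -0.71 in SM over WT in the authors' deposited table. Methionine and cysteine genes fell for 6 of 11 in DM and 7 of 11 in SM, from Mat1a, which makes S-adenosylmethionine, at -4.06 to Csad, of taurine synthesis, at -0.85 in SM over WT in the authors' deposited table. Tyrosine and phenylalanine genes fell for 4 of 7 in DM and 6 of 7 in SM, from Tat, which starts tyrosine breakdown, at -6.73 to Gstz1, which acts just before Fah, at -1.01 in SM over WT in the authors' deposited table. Arginine, urea cycle and polyamine genes fell for 4 of 12 in DM and 4 of 12 in SM, from Cps1, the entry enzyme of the urea cycle, at -6.69 to Sms, spermine synthase, at -0.80 in SM over WT in the authors' deposited table.

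The lowest of these values belong to genes known for liver expression that were rare in these kidneys. Cps1 stood at 0.0937 CPM in DM, 0.0504 CPM in SM and 5.22 CPM in WT kidneys. Tat stood at 0.0247 CPM in DM, 0.0205 CPM in SM and 2.18 CPM in WT kidneys. Tdo2 stood at 0.0184 CPM in DM, 0.0319 CPM in SM and 1.21 CPM in WT kidneys. These 3 genes, like albumin, stood far higher in WT than in DM or SM kidneys.

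Cell type markers moved beside the enzymes. Of 20 proximal tubule markers, 16 fell in DM and 15 fell in SM over WT in the authors' deposited tables, with medians of -1.07 in DM and -1.12 in SM on the log2 scale, beside -0.92 in DM and -1.05 in SM for the enzymes. Their summed level was 14179 CPM in DM, 12626 CPM in SM and 29866 CPM in WT kidneys, with the largest part from Kap. Kap itself was not called (adjusted p = 0.229 in DM and 0.0754 in SM over WT in the authors' deposited tables). The phosphate transporter Slc34a1 stood at 1995 CPM in DM, 1862 CPM in SM and 5030.2 CPM in WT kidneys. Injury markers rose for 10 of 10 members and macrophage markers for 9 of 10 in DM and 10 of 10 in SM over WT in the authors' deposited tables. The injury markers summed to 9259.9 CPM in DM, 9849 CPM in SM and 2564 CPM in WT kidneys, most of it from osteopontin (Spp1). The macrophage markers, with Csf1r highest in average CPM, summed to 531 CPM in DM, 516 CPM in SM and 146 CPM in WT kidneys. Csf1r had the smallest log2 fold changes of that list, 0.41 in DM and 0.54 in SM over WT, beside medians of 2.20 and 2.31. It was the 1 macrophage marker not called in DM. So the enzymes fell in kidneys where injury and macrophage transcripts rose. Fibroblast and matrix markers rose for 7 of 10 in DM and 7 of 10 in SM, and summed to 3514 CPM in DM, 4207 CPM in SM and 1256 CPM in WT kidneys. Markers of the thick ascending limb and distal tubule fell for 4 of 7 in either comparison, and Umod, highest in average CPM, was not called. Collecting duct markers rose for 3 and fell for 2 of 10 in DM, and rose for 5 and fell for 2 in SM in the authors' deposited tables, and the water channel gene Aqp2 was not called. T and NK cell markers rose for 5 of 9 in DM and 1 of 9 in SM, and summed to 12.2 CPM in DM, 3.46 CPM in SM and 4.68 CPM in WT kidneys. Only 1 of these 9, Cd8a, averaged at least 1 CPM, and it was called in neither comparison, so the calls rest on rare transcripts. Between DM and SM, 0 of the 9 were called in the authors' deposited table. The part of a changed cell composition in the enzymes' values was not tested.

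Hepatocyte markers fell for 13 and rose for 3 of 24 in DM, and fell for 14 and rose for 2 in SM over WT, in the authors' deposited tables. Their summed level was 481 CPM in DM, 427 CPM in SM and 507 CPM in WT kidneys. The list was split: the fibrinogen genes Fga and Fgg rose in both comparisons, transferrin (Trf), with the highest average CPM of the list, was not called, and albumin, Ahsg and Apoh were among those that fell in both. Fetuin-A (Ahsg) stood at 0.209 CPM in DM, 0.0818 CPM in SM and 27.7 CPM in WT kidneys. Apolipoprotein H (Apoh) stood at 0.215 CPM in DM, 0.168 CPM in SM and 2.73 CPM in WT kidneys. These transcripts were thus present in WT libraries and near the lowest level in DM and SM, and which WT libraries held them is unknown without values per library. Several members, Hpd, Hgd, Fah, Ass1 and Asl among them, are also known as liver enzymes, and the part of the hepatocyte markers' change in the members' values was not tested. Of 16 pancreas acinar markers 1, the elastase gene Cela1, averaged at least 1 CPM and fell in both comparisons, and the others stood below 1 CPM in every group.

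**Figure D4:**
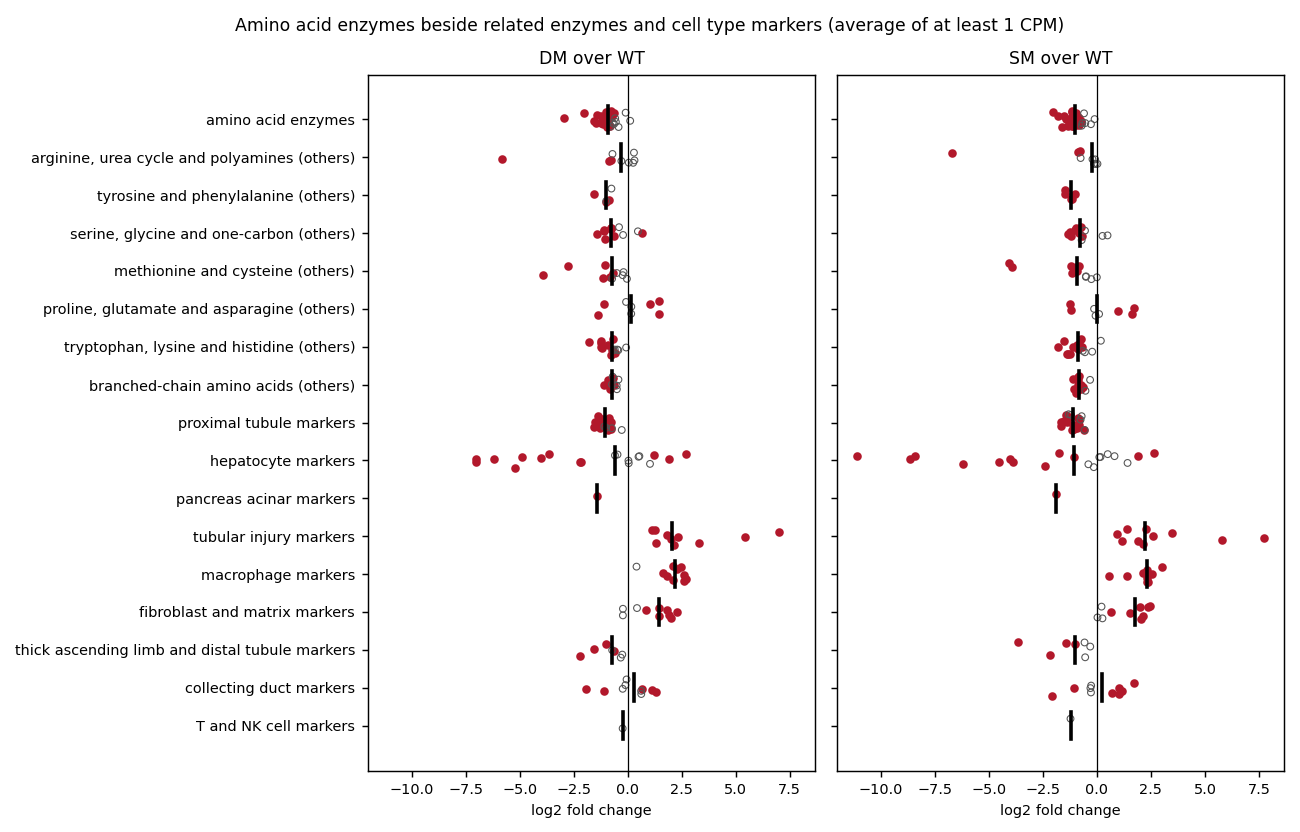
Log2 fold changes (x axes) of genes averaging at least 1 CPM in the enzymes, the 7 lists of related enzymes and the cell type markers (rows), for DM over WT and SM over WT, with filled points for an adjusted p under 0.05 and a black bar at each median. The enzymes and the proximal tubule markers overlap around -1, injury and macrophage markers lie right of 0, most matrix markers do so too, and hepatocyte markers spread widely to both sides and farthest to the left.

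Some members share exon bases with other genes. On the opposite strand, B3gnt8 covers 61.7% of the exon bases of Bckdha, Vti1b 19.96% of those of Arg2, and 0610005C13Rik 15.9% of those of Bcat2. Gm45760 covers 9.0% of those of Got2, Gm48780 covers 8.1% of those of Arg2 and AW495222 covers 6.3% of those of Dmgdh, also on the opposite strand. On the same strand, Gm21969 shares 32.5% of those of Aldh4a1. The libraries were stranded per the labels' protocols. Whether the counting used the strand is not stated in any source used here. The values of these 6 members, each with over 5% of exon bases shared, may include reads of their partners.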

How the data were processed

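RNA of whole kidneys from 10 mice (3 DM, 3 SM, 4 WT, grouped by the genotype labels) was sequenced from stranded total RNA libraries, per the labels' protocols. Without giving roles, the submitters' processing notes list edgeR 3.2.4, featureCounts, Subread 1.4.6, Cufflinks, TopHat2 2.0.12, bcl2fastq 1.8.4 and the build mm10. Per the file headers, the deposited columns are the log2 fold change, the log2 of the average CPM, the score of the likelihood ratio test, the p-value and the false discovery rate. All 3 tables were checked: they share 1 set of averages, their fold changes are additive, and the false discovery rates are Benjamini-Hochberg values over 30431 rows (23276 with a gene name). They were read as contrasts of 1 fit by the authors. Nothing says the mice shared litters or days, and depth per library is unknown.

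The call is the authors' adjusted p under 0.05. The implied SE is the absolute log2 fold change over the square root of the score, and 95% intervals take 1.96 times it. Group levels assume that the average is that of the linear CPM. Computations used Python 3.11.15, pandas 2.3.3 and scipy 1.17.1 and were tested on simulated data. Positions and exon lengths came from GENCODE M21 (GRCm38, the assembly that mm10 names). Members and lists were chosen with earlier results of these data known. The background of at least 16 CPM was chosen after the values were seen. All members were named. By the rule set, full statistics went at least to the 3 lowest and 3 highest called fold changes in SM over WT, and each related list gave its lowest and highest called gene. Another planned motif is not reported here. Protein identity between related members, also planned, was not analysed here. Alternatives changed the threshold, the rows adjusted over, the scaling, the test's reference distribution and the reading of the average.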

Additional observations from a re-analysis of the deposited data

How the results depend on the processing

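The direction of all 36 members in each comparison was kept when fold changes were re-centred on the median of rows of at least 1 CPM, which shifted values by at most 0.0105 on the log2 scale, and no call changed. The Student t reference with 7 degrees of freedom left 7 members lower in SM over WT (Gatm, Sardh, Aldh4a1, Haao, Bcat2, Ivd and Mccc1) and 3 in DM over WT (Gatm, Hpd and Haao). The members lost had adjusted p of 0.0546 to 0.193 in SM and 0.0623 to 0.203 in DM. That reference reads the authors' own score against a heavier tail and adds no degrees of freedom for information shared between genes. It is stricter than the authors' test. It left 8 other amino acid enzymes lower and 1 higher in SM, and 2 lower and 0 higher in DM. Requiring a log2 fold change of at least 1 as well left 19 members and 29 other enzymes lower in SM, and 11 members and 24 other enzymes lower in DM. At a false discovery rate of 0.01, 2 other enzymes were higher in DM. The remaining counts stayed within 1.5 times, and 0 members were called in DM over SM under every alternative. Among the members, reading the average as a mean of log2 levels moved only Hpd beyond its implied SE, to 27.8 CPM in DM, 51.8 CPM in SM and 213 CPM in WT. Levels of genes outside the members were not re-read in this way. Those with larger fold changes than Hpd, such as albumin and Cps1, depend more on that reading.

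No paired analysis was possible because the tables hold no value per library. For the same reason leaving out a library, another normalization and another count test were not run, so whether 1 library sets a value is unknown.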
